A study of Mus musculus with 6 samples.

Results

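The tumour necrosis factor (TNF) superfamily and its receptors were followed in RAW 264.7 cells, an established mouse macrophage line, exposed for 48 h to LPS (lipopolysaccharide) at 100 ng/ml together with LBP, the LPS-binding protein, at 100 pM. The members were every probe annotated to Tnf, Fas, Fasl, Lta, Ltb, Ltbr, Cd27, Cd70 or Cd40lg, or to a symbol starting with Tnfsf or Tnfrsf. This gave 55 of 16281 probes, for 35 of 10698 named genes, 15 of them ligands and 20 receptors. Superfamily genes with other symbols, such as Cd40, were outside this rule. RefSeq (GRCm38.p6) lists 42 genes that meet it. Of these, Tnfrsf9, Tnfrsf14, Tnfrsf26, Tnfsf15, Tnfsf18, the antisense gene Tnfsf13os and the read-through gene Tnfsfm13 had no probe named for them here.

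Every array set RNA of treated cells against RNA of untreated cells cultured for the same 48 h, both from RAW 264.7. On 3 arrays the treated RNA carried Cy5 and on the other 3 it carried Cy3, and each orientation had a set 1, a set 2 and a set 3. LPS comes from the outer membrane of Gram-negative bacteria. LBP, a serum protein, passes it on to the LPS receptor. RAW 264.7 is a single virus-transformed line, and nothing in the labels ties the sets to separate cultures. The p-values therefore reflect only how far the sets differed, which may be technical.

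TNF ligands are mostly trimeric membrane proteins, some of which are cut off the cell surface by proteases. Their receptors carry cysteine-rich repeats outside the cell. Inside it they bind either death-domain adaptors, which can start apoptosis, or TRAF adaptors, which lead to NF-kB and MAP kinases. In macrophages, TNF is a classical product of LPS stimulation, and the family also links macrophages to B cells (BAFF and APRIL), T cells (CD70, 4-1BBL) and osteoclasts (RANK).

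Each value is a log2 ratio, treated over untreated, turned in sign on the arrays with treated RNA in Cy3, so that a positive value means higher in treated cells. The base of the logarithm was not given and was taken as 2. An array is called Cy5-treated or Cy3-treated by the dye of its treated RNA. Where several probes of a gene are named, they are numbered in the order of their probe numbers. A mean is that of 3 set means, each the average of the 2 dye orientations of a set, ± their SD (n = 3). The SDs and tests thus join the arrays that share a set number. Rose and fell stand for an adjusted p under 0.05 in limma's moderated test across all probes with a ratio on all 6 arrays. The labels name the Cy5 RNA as test and the Cy3 RNA as control, which sets the direction, and the LPS-induced genes Il1b, Il6 and Nos2 had a positive value on every one of the 6 arrays at each of their probes. Arrays of one orientation correlated at 0.73 to 0.81 across all probes and arrays of opposite orientation at -0.69 to -0.44 before turning. Between 7.97% and 17.8% of the ratios on an array were exactly 0 and were treated as missing.

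Of the 55 member probes, 46, for 34 genes, had a ratio on all 6 arrays. Among these, 12 probes rose and 6 fell. The 18 calls are 39.1% of the tested members, against 27.1% of all 12724 tested probes. Upward calls made up 14.8% and downward calls 12.2% of all tested probes. The calls fell on 13 genes. Tnf, Ltb, Cd70, Fas, Tnfrsf1b, Tnfrsf11a, Tnfrsf13b, Tnfrsf13c and Tnfrsf22 had a probe that rose, and Tnfsf13, Tnfsf13b, Tnfsf14 and Tnfrsf17 had a probe that fell. The median over the tested members was 0.08, and that over all tested probes was -0.01. The median of absolute values was 0.22 for the members and 0.16 for all tested probes. Averaged per gene symbol, 13 of 34 member genes passed, 8 upward and 5 downward, against 26.1% of all genes. At least 2-fold changes among the calls were seen for 4 member probes upward and 1 downward, and for 3.50% of all tested probes.

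The calls depended on how ratios listed at 0 were treated, although the called members' own ratios contain no 0. With zeros kept as values, limma called 8.64% of 16281 probes and 8 of 55 members. Kept were both Fas probes, the last 2 Tnf probes, Tnfsf13, the second Tnfsf14 probe, Cd70 and Ltb. The calls lost, with unchanged means, were those of the first Tnf probe and the Tnfrsf11a probe (limma, adjusted p = 0.0532 for each), both Tnfrsf17 probes (0.155 and 0.0502), Tnfrsf1b (0.064), Tnfrsf13b (0.0765), Tnfsf13b (0.0655), the first Tnfsf14 probe (0.057), Tnfrsf13c (0.111) and Tnfrsf22 (0.103). In that fit 1011 probes were 0 on every array, and the prior degrees of freedom that limma borrows across probes fell to 0.76, from 6.33.

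**Figure D1:**
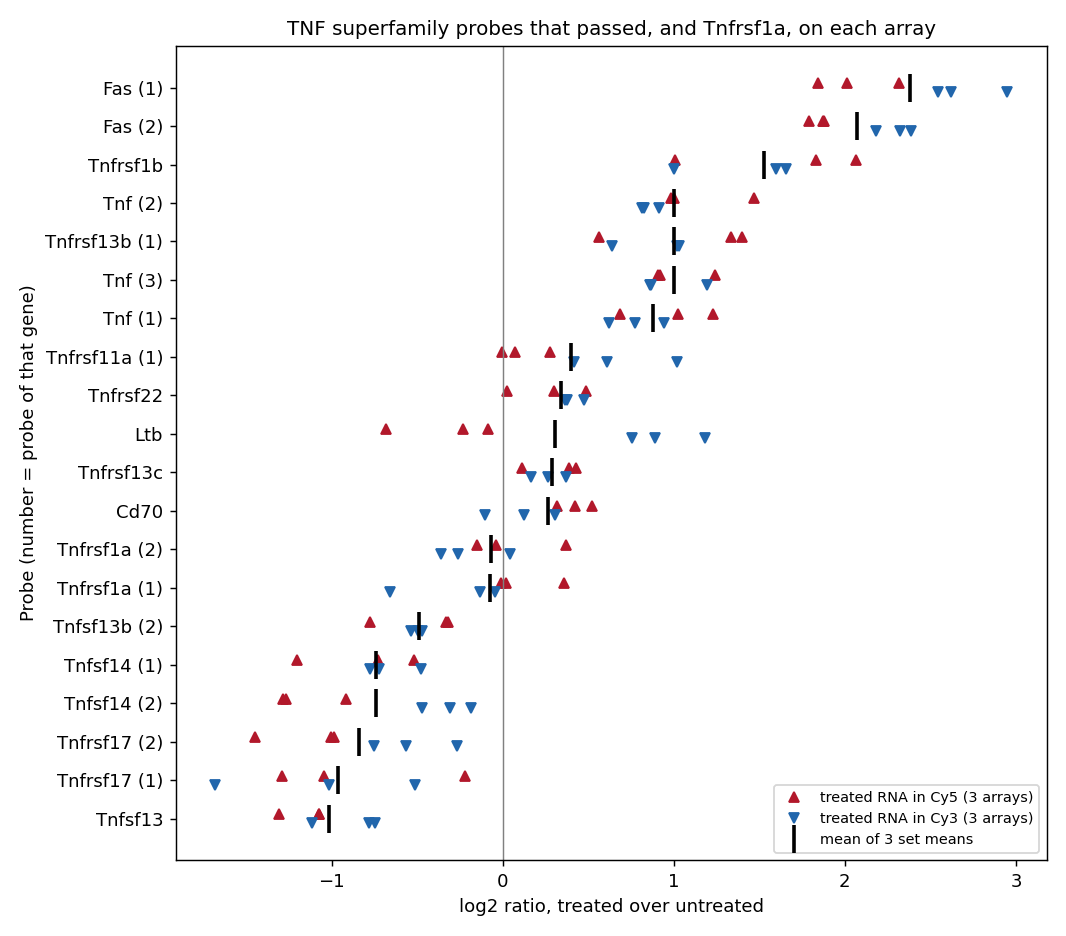
Log2 ratio of treated over untreated cells (x axis) on each of the 6 arrays for the 18 member probes that passed and for both Tnfrsf1a probes (y axis, number in brackets = probe of that gene). Triangles show arrays by the dye of the treated RNA, bars the mean of the 3 set means. All 6 Fas values per probe lie at 1.79 or higher, whereas the Ltb values lie on opposite sides of 0 in the 2 dye orientations.

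The 250 bases before the transcription start of 5 members that changed, chosen after their values were seen, are shown from RefSeq (GRCm38.p6), so that the genes that rose and those that fell can be set side by side. Capitals mark matches, on either strand, to TGANTCA (the AP-1 site), TATAAA (the TATA box), the core of the interferon-stimulated response element and the kappaB consensus. These motifs were chosen after the sequences had been seen. The first 3 promoters belong to genes that rose and the last 2 to genes that fell.
Tnf, chr17:35202008-35202257, minus strand: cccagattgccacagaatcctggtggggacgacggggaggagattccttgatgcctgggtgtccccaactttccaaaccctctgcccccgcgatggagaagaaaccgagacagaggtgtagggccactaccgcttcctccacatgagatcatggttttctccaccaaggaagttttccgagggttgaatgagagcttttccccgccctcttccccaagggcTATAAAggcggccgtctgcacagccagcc
Fas, chr19:34290409-34290658, plus strand: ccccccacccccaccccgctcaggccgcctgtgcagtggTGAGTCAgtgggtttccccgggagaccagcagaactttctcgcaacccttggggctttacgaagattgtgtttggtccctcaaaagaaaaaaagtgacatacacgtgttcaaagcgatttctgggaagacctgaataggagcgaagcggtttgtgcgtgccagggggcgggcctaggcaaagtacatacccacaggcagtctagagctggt
Tnfrsf1b, chr4:145246871-145247120, minus strand: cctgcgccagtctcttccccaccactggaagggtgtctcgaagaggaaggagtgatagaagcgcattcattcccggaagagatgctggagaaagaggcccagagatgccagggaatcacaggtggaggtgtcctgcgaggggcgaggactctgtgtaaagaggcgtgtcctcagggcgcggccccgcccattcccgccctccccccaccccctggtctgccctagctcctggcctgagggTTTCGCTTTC
Tnfsf13, chr11:69685555-69685804, minus strand: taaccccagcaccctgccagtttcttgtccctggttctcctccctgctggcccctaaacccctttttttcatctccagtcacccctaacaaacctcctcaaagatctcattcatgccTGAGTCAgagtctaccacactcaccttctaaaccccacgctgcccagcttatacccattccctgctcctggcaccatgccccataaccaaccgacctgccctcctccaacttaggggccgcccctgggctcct
Tnfsf14, chr17:57194182-57194431, minus strand: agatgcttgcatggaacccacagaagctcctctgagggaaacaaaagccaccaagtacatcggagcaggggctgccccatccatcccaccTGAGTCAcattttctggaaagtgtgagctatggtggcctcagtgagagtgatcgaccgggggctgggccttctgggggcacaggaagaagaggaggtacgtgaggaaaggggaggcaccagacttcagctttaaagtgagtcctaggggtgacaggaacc

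The Tnf window held a TATA box 29 bases before the start. The AP-1 letters stood 211 bases before the start in Fas, which rose, and 133 and 160 bases before it in Tnfsf13 and Tnfsf14, which fell. The Tnfrsf1b window held the interferon element core 10 bases before its start. RefSeq windows were found for 27 of the 35 genes, 30 windows in all. AP-1 letters were in 5 of the 30 and in 6.75% of all 32851 windows, and TATAAA was in 5 of the 30 and in 12.4%. The interferon element core was in 3 (Tnfrsf1b, Tnfrsf17 and Tnfsf13b) and in 2.98% of all windows, and the kappaB consensus in 2 (Ltb and Tnfrsf8) and in 3.90%. Because the motifs were chosen after the sequences had been seen, no excess over all windows can be read from these counts. A match describes letters and is not evidence of binding.

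Tnf, the founding ligand of the family, was higher in treated cells at all 3 of its probes and on all 6 arrays. The first probe read 1.03, 1.23 and 0.68 in sets 1 to 3 on the Cy5-treated arrays and 0.77, 0.94 and 0.62 with treated RNA on the Cy3-treated ones. The second read 1.00, 1.47 and 0.98, and then 0.83, 0.92 and 0.81. The last read 0.91, 1.24 and 0.92, and then 0.86, 1.19 and 0.86. Set 2 was the highest in each orientation at each probe, and no value came near 0. The means were 0.88 ± 0.22, 1.00 ± 0.17 and 1.00 ± 0.19, which are 1.84-fold, 2.00-fold and 2.00-fold (limma, adjusted p = 0.000487, 0.000149 and 0.000184). In bulk RNA such as this, more RNA per cell and more cells making it cannot be told apart.

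The neighbours of Tnf in the genome are Lta and Ltb, whose products form lymphotoxin trimers. Lta, the soluble lymphotoxin, read 0.07, 0.02 and 0.01 on the Cy5-treated arrays and 0.39, 0.41 and 0.03 on the Cy3-treated ones. It was above 0 on all 6 arrays but did not pass (0.16 ± 0.12, limma adjusted p = 0.242). Ltb, the membrane-anchoring lymphotoxin subunit, read -0.09, -0.23 and -0.68 on the Cy5-treated arrays and 0.76, 0.89 and 1.18 on the Cy3-treated ones. The 2 orientations did not overlap and lay on opposite sides of 0. Averaged over orientations Ltb passed as higher at 0.30 ± 0.05 (limma, adjusted p = 0.0294), where the SD of set means leaves out the spread between orientations. The call was lost without set 1, set 2 or set 3 (0.29, 0.29 and 0.33, adjusted p = 0.117, 0.105 and 0.0655). It was also lost without the Cy3-treated array of set 1, 2 or 3 (0.16, 0.12 and -0.0064, adjusted p = 0.316, 0.622 and 0.987). Without the Cy5-treated array of set 2 or set 3 the mean was 0.49 or 0.62. In each of these last 5 cases 1 orientation outweighs the other, so the dye does not cancel. With the set as a random block the adjusted p was 0.12.

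A further 2 probes are annotated to more than 1 of these neighbours and were not counted as members. The probe annotated to Tnf and Lta read 1.59, 1.61 and 1.99 on the Cy5-treated arrays and 2.13, 2.23 and 2.49 on the Cy3-treated ones, and rose by 2.00 ± 0.21 (limma, adjusted p = 3.74e-06). That is a larger ratio than at any of the 3 probes of Tnf alone, and the probe cannot be given to either gene. The probe annotated to Tnf, Ltb and Lta read 0.62, 0.51 and 1.30, and then 0.39, 0.21 and 0.79, and rose by 0.64 ± 0.36 (limma, adjusted p = 0.00839).

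TNF has a pair of receptors, and their probes gave different pictures. Tnfrsf1b (TNFR2), which signals through TRAF adaptors and carries no death domain, read 1.83, 2.07 and 1.00 on the Cy5-treated arrays and 1.66, 1.60 and 1.00 on the Cy3-treated ones. Set 3 was the lowest in both orientations. The single probe rose by 1.53 ± 0.46, or 2.88-fold (limma, adjusted p = 0.000199). Tnfrsf1a (TNFR1), the death-domain receptor present on most cells, read -0.01, 0.36 and 0.02, and then -0.13, -0.04 and -0.66, at its first probe. The second probe read -0.04, 0.37 and -0.15, and then -0.26, 0.04 and -0.36. Neither passed (-0.08 ± 0.24 and -0.07 ± 0.24, limma adjusted p = 0.648 and 0.702), and the highest Tnfrsf1a value, 0.37, lay below the lowest Tnfrsf1b value, 1.00.

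Fas, the death receptor for Fas ligand, showed the largest ratios of the family. Its first probe read 2.01, 1.84 and 2.31 on the Cy5-treated arrays and 2.55, 2.95 and 2.62 on the Cy3-treated ones. The second read 1.79, 1.88 and 1.87, and then 2.18, 2.39 and 2.32. The values with treated RNA in Cy3 were above those in Cy5 at each probe without overlap. The means were 2.38 ± 0.09 and 2.07 ± 0.08, which are 5.20-fold and 4.20-fold (limma, adjusted p = 6.06e-07 and 1.24e-06). Fasl, its ligand, is known chiefly from cytotoxic lymphocytes. It read 0.13, -0.21 and 0.47, and then 0.14, -0.04 and -0.13, with 3 arrays on each side of 0, and did not pass (0.06 ± 0.16, limma adjusted p = 0.693).

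The BAFF and APRIL system, which supports B cells and plasma cells, had calls in both directions. A probe fell for Tnfsf13, Tnfsf13b and Tnfrsf17, and a probe rose for Tnfrsf13b and Tnfrsf13c. Tnfsf13 (APRIL) read -1.07, -1.31 and -1.08 on the Cy5-treated arrays and -1.12, -0.75 and -0.78 on the Cy3-treated ones. It fell by 1.02 ± 0.08 on the log2 scale, or to a level 2.02-fold lower (limma, adjusted p = 7.59e-05). Tnfsf13b (BAFF) fell at its second probe, which read -0.32, -0.77 and -0.33, and then -0.47, -0.54 and -0.50 (-0.49 ± 0.15, limma adjusted p = 0.00568). The first Tnfsf13b probe read -0.49, -0.67 and 0.05, and then -0.10, 0.35 and -0.20, and did not pass (-0.18 ± 0.11, limma adjusted p = 0.187). The platform annotation lists the same source sequence for both probes, and averaged over them Tnfsf13b fell by 0.33 (limma, adjusted p = 0.0225). Tnfsf12 (TWEAK), the genomic neighbour of Tnfsf13, was at -0.02 ± 0.08 (limma, adjusted p = 0.917).

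The receptors of that system did not move together. Tnfrsf17 (BCMA), known from plasma cells, read -1.04, -0.22 and -1.29, and then -1.01, -0.51 and -1.68, at its first probe. The second read -0.99, -1.01 and -1.45, and then -0.27, -0.75 and -0.56. All 12 values were below 0, and set 2 was the highest in both orientations at the first probe. Tnfrsf17 fell by 0.96 ± 0.56 and 0.84 ± 0.19 (limma, adjusted p = 0.00523 and 0.000507). Tnfrsf13b (TACI), which binds BAFF and APRIL, rose at its first probe only, which read 1.33, 0.56 and 1.40, and then 1.03, 0.64 and 1.02. That probe's mean was 1.00 ± 0.34, or 2.00-fold (limma, adjusted p = 0.000756), with set 2 the lowest in both orientations. The other probe read -0.23, -0.36 and -0.15 on the Cy5-treated arrays and 0.43, 1.11 and 0.51 on the Cy3-treated ones (0.22 ± 0.14, limma adjusted p = 0.119). Its orientations opposed each other, and no difference between the 2 probes was tested. Averaged over both, Tnfrsf13b rose by 0.61 (limma, adjusted p = 0.00205). Tnfrsf13c (BAFF receptor) was slightly above 0 on all 6 arrays, from 0.11 to 0.43, and rose by 0.29 ± 0.13 (limma, adjusted p = 0.0468).

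These 3 receptors are known from B-lineage cells. Among 5 tested probes of B cell markers, 1 rose, that of the B cell receptor component Cd79a (0.63 ± 0.11, limma adjusted p = 0.00127), and none of the other 4 passed. The share of calls over all tested probes was 27.1%, to be set beside each marker count here. Of 25 tested probes for markers of T, B and NK cells, fibroblasts, endothelium and epithelium, 2 rose and 1 fell. Those that rose were Cd79a and the fibroblast marker Dcn (2.68 ± 0.95, limma adjusted p = 0.000249), whose mean was above that of every family member. The one that fell was Nkg7 (-0.34 ± 0.12, limma adjusted p = 0.0241). Of 6 tested probes of macrophage markers, Adgre1 (0.94 ± 0.09) and Fcgr1 (1.96 ± 0.15) rose and Csf1r fell by 0.53 ± 0.22. The ratios carry no level, so the presence of the labelled cell type could not be checked by abundance, and the part of these markers in the family's changes was not tested.

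Tnfsf14 (LIGHT), a ligand of the lymphotoxin beta receptor and of HVEM, fell at both probes. The first read -0.52, -1.20 and -0.73, and then -0.78, -0.72 and -0.48. The second read -1.27, -1.28 and -0.92 on the Cy5-treated arrays and -0.47, -0.19 and -0.31 on the Cy3-treated ones, with no overlap between orientations. Both means were -0.74, ± 0.20 and ± 0.13 (limma, adjusted p = 0.00102 and 0.000607). Its genomic neighbours Cd70 and Tnfsf9 gave other values. Cd70, the ligand of Cd27, read 0.32, 0.52 and 0.42, and then 0.31, -0.10 and 0.13, and rose by 0.27 ± 0.05 (limma, adjusted p = 0.0486). With the set as a random block it did not pass (limma, adjusted p = 0.0714). Tnfsf9 (4-1BBL), a costimulator of T cells, was above 0 on all 6 arrays, from 0.04 to 0.37, without passing (0.22 ± 0.05, limma adjusted p = 0.0968). Ltbr, the lymphotoxin beta receptor, was at 0.12 ± 0.14 (limma, adjusted p = 0.39), with 3 arrays on each side of 0. The first Cd27 probe was at 0.07 ± 0.06 (limma, adjusted p = 0.586) and spanned -0.51 to 0.67. The other had no ratio on 2 arrays and read -0.30 to 0.03 on the remaining 4.

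**Figure D2:**
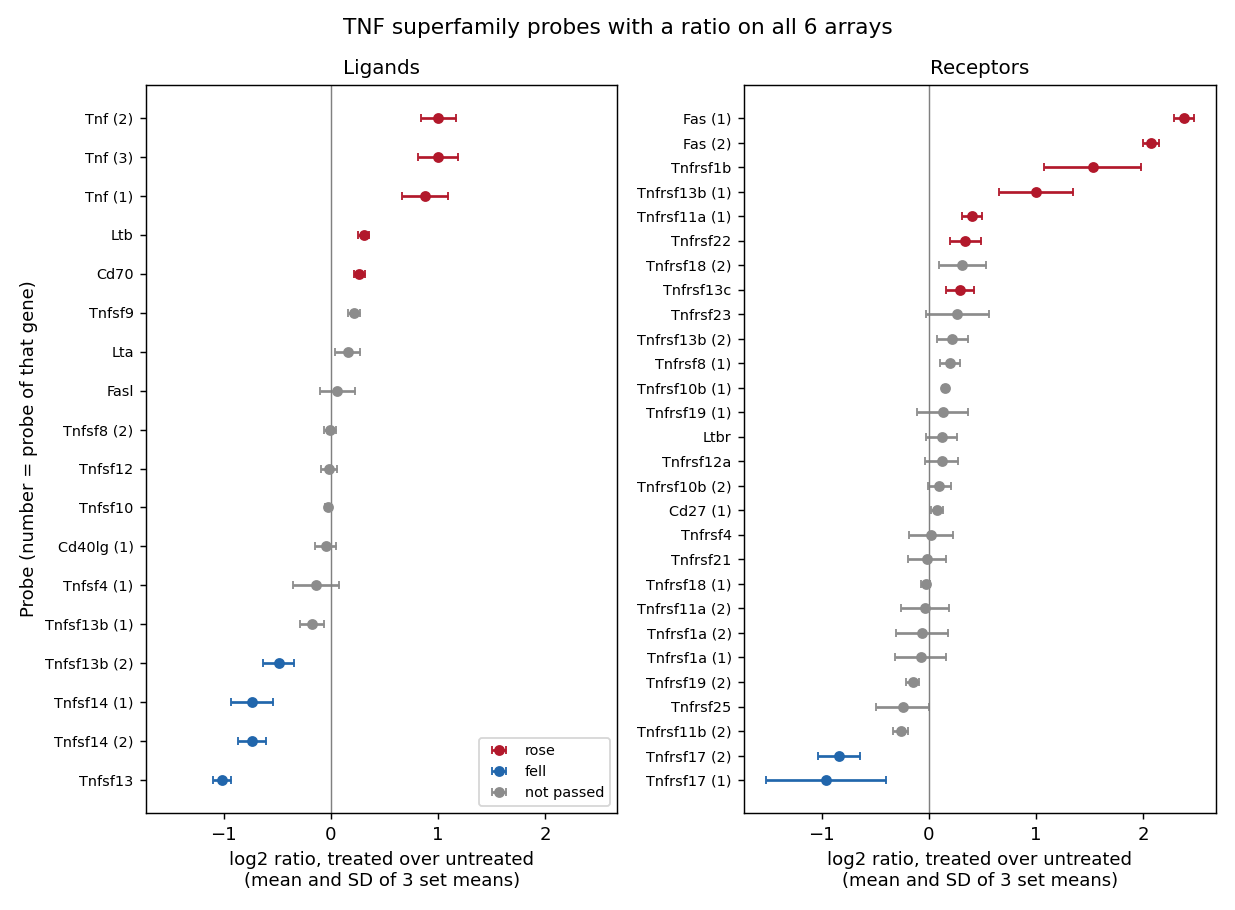
Mean log2 ratio of treated over untreated cells (x axis) with the SD of the 3 set means for the 46 member probes with a ratio on all 6 arrays, ligands on the left and receptors on the right. Of 18 ligand probes 5 rose and 4 fell, and of 28 receptor probes 7 rose and 2 fell, with Fas highest at 2.38 and Tnfsf13 lowest at -1.02.

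By role, 9 of 18 tested ligand probes passed, 5 upward and 4 downward, or 50% against 27.1% of all tested probes, with a median of -0.01. Of 28 tested receptor probes, 7 rose and 2 fell, or 32.1%, which is near the 27.1% of all tested probes, with a median of 0.12. Among all tested probes 14.8% rose and 12.2% fell. The ligand calls include 3 probes of Tnf, 2 of Tnfsf14 and that of Ltb, whose sign followed the dye. By gene, 6 of 14 tested ligand genes and 7 of 20 tested receptor genes had a called probe. In the fit averaged per gene symbol 26.1% of all genes passed. A difference between the roles was not tested. The plot of all tested members shows a dense centre, since 73.9% of them lay within 0.5 of 0, against 87.2% of all tested probes. The members that did not pass had means between -0.26 and 0.31, and the smallest change that passed was 0.27, so size alone did not decide a call.

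The RANK system, which drives osteoclast formation, gave mixed readings. Tnfrsf11a (RANK) read 0.07, -0.0044 and 0.28, and then 0.61, 1.02 and 0.41, at its first probe, with treated RNA in Cy3 higher throughout. It rose by 0.40 ± 0.09 (limma, adjusted p = 0.0109). The second Tnfrsf11a probe spanned -0.42 to 0.37 and did not pass (-0.04 ± 0.23, limma adjusted p = 0.84), and averaged over both probes the gene did not pass (0.18, limma adjusted p = 0.149). Tnfrsf11b (osteoprotegerin), a soluble decoy for RANK ligand, read -0.06, -0.40 and -0.23, and then -0.51, -0.23 and -0.13. It was below 0 on all 6 arrays and did not pass (-0.26 ± 0.07, limma adjusted p = 0.0539), but did so in the fit averaged per gene symbol (limma, adjusted p = 0.0489). Its other probe was listed at 0 on all arrays. Tnfsf11 (RANK ligand) could not be tested. Its first probe read -0.50, 0.40 and -0.74, and then -0.08 and -0.29 in sets 1 and 2, and its second had ratios on 3 arrays, between -0.68 and 1.08.

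In the TRAIL group, Tnfrsf22, a decoy receptor of the mouse, was above 0 on all 6 arrays, from 0.02 to 0.49, and rose by 0.34 ± 0.14 (limma, adjusted p = 0.0282). Its neighbour and fellow decoy Tnfrsf23 was at 0.26 ± 0.30 (limma, adjusted p = 0.139), with 2 arrays below 0. Tnfrsf10b, the TRAIL death receptor of the mouse, was at 0.15 ± 0.02 and 0.10 ± 0.11 at its probes (limma, adjusted p = 0.231 and 0.47). Tnfsf10 (TRAIL) read 0.26, 0.09 and 0.51 on the Cy5-treated arrays and -0.27, -0.21 and -0.55 on the Cy3-treated ones. The sign followed the dye on every array, and the mean was -0.03 ± 0.03 (limma, adjusted p = 0.833).

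The smaller upward calls were lost in some fits that left out a set or an array. Such fits hold fewer values and called 1991 to 3062 of all probes, against 3443 in the main fit. Without 1 array, 1 orientation outweighs the other, so the dye does not cancel. Cd70 did not pass without set 1, 2 or 3 (0.24, 0.29 and 0.26, adjusted p = 0.188, 0.101 and 0.147) or without any 1 array (0.16 to 0.37, adjusted p = 0.0597 to 0.372). Tnfrsf13c did not pass without set 2 or set 3 (0.26 and 0.24, adjusted p = 0.166 and 0.189) or without any 1 array (0.26 to 0.32, adjusted p = 0.0692 to 0.113). Tnfrsf22 did not pass without set 1 or set 3 (0.27 and 0.34, adjusted p = 0.152 and 0.0772), nor without the Cy3-treated array of set 2 or set 3 (0.28 and 0.33, adjusted p = 0.179 and 0.0861). Tnfrsf11a did not pass without set 2 (0.34, adjusted p = 0.0678) or without the Cy3-treated array of set 1, 2 or 3 (0.31, 0.23 and 0.38, adjusted p = 0.0775, 0.242 and 0.0503). The calls of Fas, Tnf, Tnfrsf1b, Tnfrsf13b, Tnfrsf17, Tnfsf13, Tnfsf13b and Tnfsf14 were kept without any 1 set and without any 1 array.

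The remaining receptors and ligands did not pass. Tnfrsf18 (GITR), a receptor of regulatory T cells, had its second probe at 0.31 ± 0.22 (limma, adjusted p = 0.0561), with -0.12 on average over the arrays on the Cy5-treated arrays and 0.74 over those on the Cy3-treated ones. It passed only without the Cy5-treated array of set 2 (0.52, adjusted p = 0.0144). Its first probe was at -0.03 ± 0.04, and its last had ratios on 3 arrays, between 0.14 and 0.50. Tnfrsf25, a death receptor of T cells, was at -0.25 ± 0.25, below 0 on 5 of 6 arrays. Tnfrsf8 (CD30) was at 0.20 ± 0.09 at its first probe, and Tnfrsf12a, the TWEAK receptor, at 0.12 ± 0.16. The death receptor Tnfrsf21 (-0.02 ± 0.18), Tnfrsf4 (OX40, 0.02 ± 0.21) and Tnfrsf19 (0.13 ± 0.24 and -0.15 ± 0.06) lay near 0. Among the ligands, Cd40lg (-0.05 ± 0.10), Tnfsf4 (OX40 ligand, -0.14 ± 0.21) and Tnfsf8 (CD30 ligand, -0.01 ± 0.06) did so as well, each at the probe that could be tested.

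The 9 members without a ratio on all 6 arrays were probes of Cd27, Cd40lg, Tnfrsf8, Tnfrsf11b, Tnfrsf18, Tnfsf4 and Tnfsf8 and both probes of Tnfsf11. Those of Cd40lg and Tnfrsf11b were 0 on every array. Tnfsf8 read -1.06 and -0.34 in sets 1 and 2 on the Cy5-treated arrays and 1.22, 1.00 and 0.82 on the Cy3-treated ones. Tnfsf4 read -0.77 and -0.67 in sets 1 and 3, and then 0.04, 0.65 and 0.27. Tnfrsf8 read 0.23 and 0.03 in sets 1 and 2, and then -0.23, -0.36 and -0.43. All 3 thus changed sign with the dye. With sets counted where both orientations had a ratio, which drops 1 set for each, 4 of the 9 could be tested, and none passed (limma, adjusted p = 0.116 to 0.676). That fit called 24.5% of 14524 probes.

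**Figure D3:**
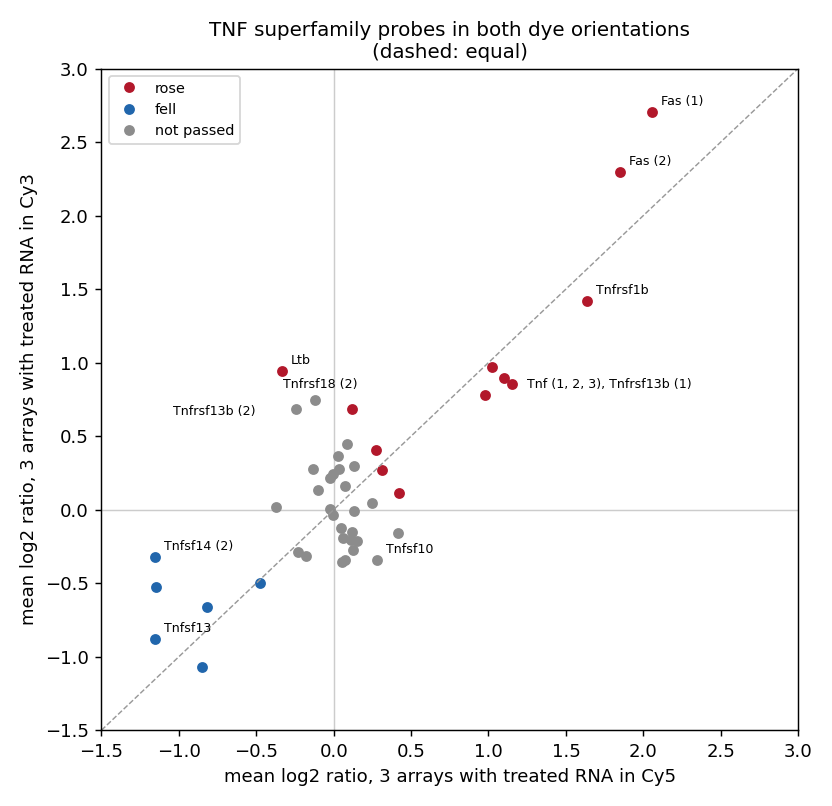
Mean log2 ratio of treated over untreated cells on the 3 arrays with treated RNA in Cy5 (x axis) and on the 3 with treated RNA in Cy3 (y axis) for the 46 tested member probes. Points on the dashed line are equal in both. Ltb, at -0.33 and 0.94, lies far from it, while the Tnf probes and Tnfrsf1b lie close to it.

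A dye effect, tested on set means before any sign was turned, passed for 0 of the 46 members and for 0.181% of all tested probes (limma). At an unadjusted p under 0.05 it was seen in 13 of the 46 members and in 26.3% of all tested probes. With the set as a random block over the 6 arrays limma called a dye effect in 8 members and in 7.87% of all tested probes. With the arrays as independent samples it did so in 1 member and in 1.03% of all. On single arrays, 15 of the 18 called members had 1 sign on all 6 arrays, and the 3 that did not were Ltb, Cd70 and Tnfrsf11a. In total 18 of 46 tested members had 1 sign throughout, or 39.1%, against 30.2% of all tested probes.

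At and below the receptors, 46 genes were listed, of which 36 had a probe. Besides adaptors, kinases, NF-kB subunits, their inhibitors and TNF-induced proteins, the list held ubiquitin ligases, death effectors and the sheddase Adam17. Of 45 tested probes 23 rose and 0 fell, or 51.1%, against 27.1% of all tested probes, with a median of 0.30 against -0.01. With zeros kept as values 11 of 53 rose. The highest were the necroptosis effector Mlkl (2.24 ± 0.05, 4.73-fold, limma adjusted p = 6.88e-07), the TRAF adaptor Traf1 (1.93 ± 0.10 and 1.58 ± 0.24) and the Fas-binding protein Daxx (1.31 ± 0.08). The lowest that rose were the initiator caspase Casp8 (0.30 ± 0.03), the NF-kB subunit Relb (0.33 ± 0.19) and the TNF-induced gene Tnfaip2 (0.37 ± 0.11 and 0.37 ± 0.21). The inhibitor of the Fas pathway Cflar was at 0.98 ± 0.31 and rose, whereas the adaptor Fadd did not pass at either probe (0.20 ± 0.10 and -0.22 ± 0.13). Traf2 did not pass at any of its 3 probes (-0.27 to 0.18). The list was drawn up with earlier results of these data known and is no independent evidence of its direction.

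**Figure D4:**
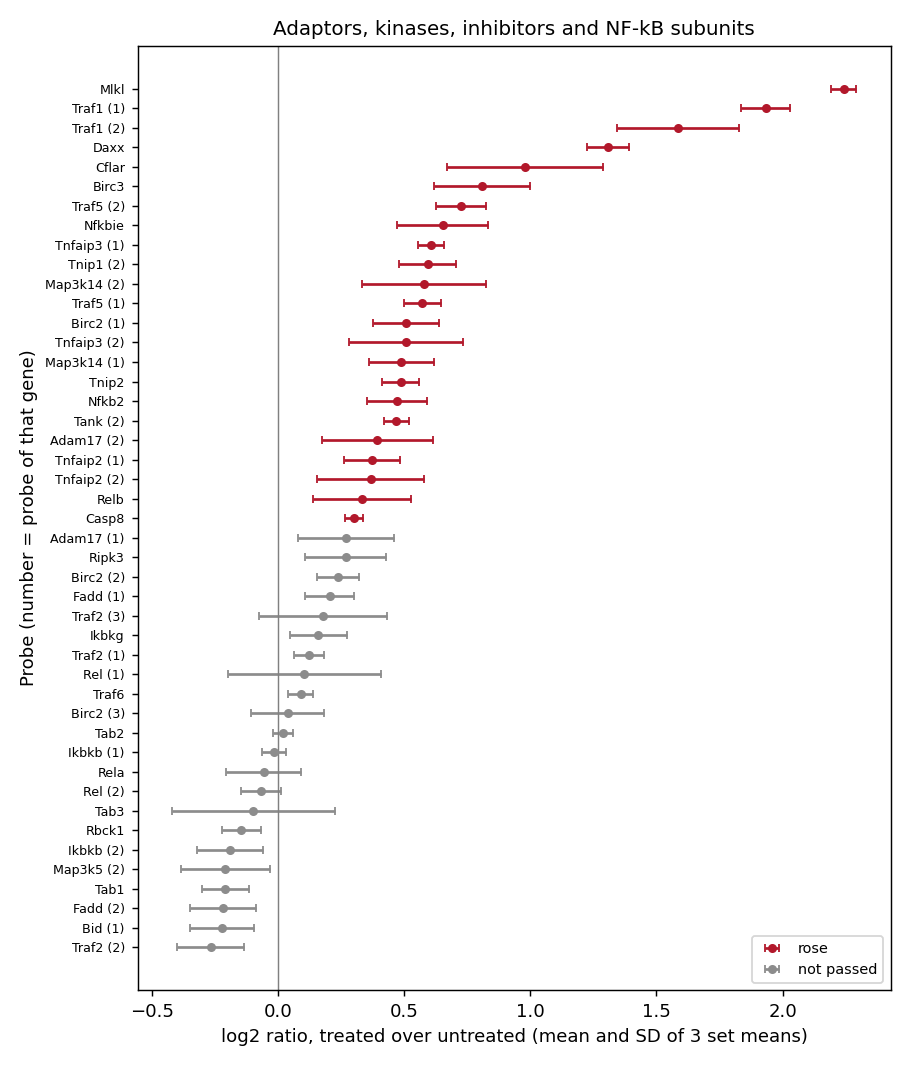
Mean log2 ratio of treated over untreated cells (x axis) with the SD of the 3 set means for the 45 tested probes of the pathway list. The list includes the sheddase Adam17 and TNF-induced genes. Of the 45 probes, 23 rose, led by Mlkl at 2.24, and 0 fell, with Traf2 lowest at -0.27.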

How the data were processed

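The authors deposited 1 log ratio of Cy5 over Cy3 per probe for each of 6 two-colour arrays. The deposited values were treated as log2, which is an assumption. The base of the logarithm, the background correction and the dye normalization were not given in the sources used here, and the deposited median was 0 on every array. Ratios of exactly 0 were set to missing. Probes were named through the platform annotation (13738 of 16281 with 1 symbol), and 2 probes with several family symbols were kept out of the counts. The sign was turned on the arrays with treated RNA in Cy3, orientations were averaged per set, and the 3 set means were tested against 0 (limma 3.58.1 in R 4.3.3, lmFit and eBayes, two-sided, Benjamini-Hochberg over 12724 probes, threshold 0.05). A set counts as 1 replicate because the labels do not say that its arrays come from separate extracts. The number of arrays limits the precision. The procedure was also run on simulated ratios with independent noise on each array. These held no dye effect and no set effect, so the run does not test how the procedure handles either. All columns were mapped to samples, with 0 left over.

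The members and lists were chosen with earlier results of these data known. Every member gene is named; values on all arrays are given for called probes with a mean of at least 1 or at most -0.5, for Tnf and its receptors, for disagreeing probes and, beyond that rule, for other members chosen after their values were seen. Of the pathway list the 4 highest and the 4 lowest called probes are named, and Cflar, Fadd and Traf2 were added after their values were seen. Alternatives were zeros kept, incomplete probes, averaging per gene, both treatments of the sets, centring, scaling, a 2-fold limit, and leaving out sets or arrays.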

Additional observations from a re-analysis of the deposited data

Results flagged for a closer look

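Among the 46 tested members, 3 had an array far from the other 5. Chance gives such a gap in about 1 of 20 groups of 6 independent, normally distributed values. The arrays here differ in dye orientation and share set numbers, so that rate need not hold for them. Arrays are named by the dye of their treated RNA. The first Tnfrsf19 probe read 1.09 on the Cy5-treated array of set 3. The first Tnfsf4 probe read -0.87 on the Cy3-treated array of set 3. The second Tnf probe read 1.47 on the Cy5-treated array of set 2, the other 5 arrays lying between 0.81 and 1.00.

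In 3 of the 46 tested members every array of one dye orientation had a sign opposite to every array of the other. The dye means (Cy5 over Cy3, treatment cancelled) were -0.64 for Ltb, 0.31 for Tnfsf10 and -0.46 for the second Tnfrsf13b probe. None passed the test of the dye effect (limma, adjusted p = 0.0977, 0.125 and 0.1). Over all tested probes, 7.21% showed such opposite signs, and the members were near that share.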

How the results depend on the processing

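The direction was kept for all called members under every alternative run except Ltb, which stood at -0.0064 without the Cy3-treated array of set 3 and at 0.62 without the Cy5-treated one. With zeros kept, limma called 1407 of all probes (main 3443), 8 members (main 18), 11 pathway probes (main 23) and 0 probes for the dye (main 23, with 3922 at an unadjusted p under 0.05). A 2-fold limit left 445 probes, 5 members and 4 pathway probes. Leaving out a set or an array gave 1991 to 3062 probes, 13 to 17 members and 17 to 22 pathway probes. The count of all probes fell more than 1.5 times below the main one without set 2 (2191) and without the Cy3-treated array of set 2 (1991) or set 3 (2214). Leaving one out gave 0 to 30 probes with a dye effect, 0 of them without set 1. Incomplete probes, gene averages, the replicate block and no replicate block gave 38, 8, 1001 and 131 dye calls, and the last pair 8 and 1 among members. With the replicate block, 3405 probes and 16 members passed, Cd70 (adjusted p = 0.0714) and Ltb being lost. With the 6 arrays as independent samples (no replicate block), 4293 probes and 20 members passed, Tnfsf9 (limma, adjusted p = 0.0314) and Tnfrsf11b being gained. Deviations of same-numbered arrays correlated at 0.528, 0.0773 and 0.167 in sets 1 to 3. In sets 1 and 3 this was above the values of either array with the other sets. The Cy3 array of set 2, however, correlated better with the Cy5 array of set 3 (0.133). The consensus correlation within sets was 0.349. These data thus do not settle that the numbers pair the arrays in every set. The set means nevertheless join same-numbered arrays, as the set labels do, and their SDs and p-values rest on it. Scaling lost Cd70 and Tnfrsf13c (adjusted p = 0.0565 and 0.0542), and incomplete probes lost Cd70 (adjusted p = 0.053).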
